A study of Mus musculus with 8 samples.

Results

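Wnt4 and 4 genes tied to Wnt signalling, Wnt6, Rspo1, Apcdd1 and Tnfrsf19, were followed across the gonads of mouse embryos with and without Wnt4. Every probe set annotated to 1 of these genes was taken, which gave 5 probe sets, 1 for each gene, of 12488 on the array, and 5 genes of 8251 with a probe set of their own. Levels were measured on 8 Affymetrix MG_U74Av2 arrays, with 1 array for each combination of genotype, sex and stage and no replicate. The groups were Wnt4 knock-out (KO) females, wild type (WT) females, KO males and WT males, each at embryonic day 14.5 (E14.5) and at E12.5. The tissue was kept frozen while PCR settled each genotype. The sources used here do not give how the Wnt4 allele was disrupted, the strain, or how many embryos an array stands for.

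Wnt proteins are secreted ligands that bind Frizzled receptors and Lrp5 or Lrp6, and in the canonical branch this stabilises beta-catenin, which then acts with Tcf and Lef factors on target genes. R-spondins keep the receptors on the cell surface and so strengthen the signal, while antagonists such as Apcdd1 weaken it. In the fetal mouse ovary, Rspo1 and Wnt4 act in the pathway that keeps supporting cells on the ovarian course, and Wnt4 is also made by mesonephric tubules, which lie beside the gonad.

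Values below are log2 signals, shifted so that all arrays share 1 median. Differences are log2, and values under a floor of 6.99, the 40th percentile of all values, were set to the floor before differences were taken. Errors are SEs from a fit with limma over all 8 arrays, in which the stages act as the repeat for genotype, and the call threshold is an adjusted p of 0.05. Between 59.7% and 60.4% of values on an array lay above the floor. Precision is limited by having 8 arrays.

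Some arrays stood apart. On the WT female E14.5 array the Y-linked gene Eif2s3y was at 7.63, against 4.86 to 6.04 on the other 3 female arrays. On the male arrays it was between 6.91 and 8.12. The Y-linked genes Kdm5d and Uty were under the floor on all 8 arrays, at 6.31 and 5.02 on this one. Cyp17a1, a steroidogenic enzyme of Leydig cells, was at 10.36 there, against 7.32 to 8.13 on the other female arrays. On floored values, the mean of 6 Leydig and steroidogenic genes was 8.82 there, against 7.33 to 7.83 on the other female arrays. That of 8 Sertoli genes was 8.56, against 7.98 to 8.07. Insl3 of the Leydig list, at 6.28, and Vnn1 of the Sertoli list, at 7.43, were not highest there among the female arrays. Xist, the RNA of the inactive X chromosome, was between 4.07 and 4.79 on all male arrays. Among the female arrays it was lowest on the WT female E14.5 array, at 7.10, against 7.69 to 8.13 on the others. Both E14.5 male arrays differed from the rest across the genome. In WT gonads at E14.5, 1183 of 8452 probe sets (14%) had a female signal at least double the male one and 650 (7.69%) had one at most 0.5 of it, against 12 (0.142%) and 22 (0.26%) at E12.5. Some ovarian transcripts were above WT in KO males of E14.5. Kitl was at 7.65 in KO and 6.23 in WT males, and Irx3 at 7.77 in KO and 6.57 in WT males.

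The upstream sequences of 4 of the 5 genes were read from RefSeq (build GRCm38.p6), and that of Apcdd1 is not reported here. They were searched for CTTTGAT, a core motif of Tcf and Lef factors, on both strands of the 250 bases before each annotated start. The Tnfrsf19 start at chr14:61037988-61038237 (minus strand) held 1 match, as its reverse complement, beginning 202 bases before the start. The other Tnfrsf19 start, chr14:61046856-61047105 (minus strand), and the windows of Wnt4, Wnt6 and Rspo1 held 0. Of 32851 such windows, 3.21% held the motif. The Tnfrsf19 and Wnt4 windows are shown because these 2 of the 5 genes had the most negative KO minus WT differences in females at E14.5, and they differ in base composition. The capitals mark the motif, and sequences run 5′ to 3′ on the strand of the gene.
Tnfrsf19, start with the motif: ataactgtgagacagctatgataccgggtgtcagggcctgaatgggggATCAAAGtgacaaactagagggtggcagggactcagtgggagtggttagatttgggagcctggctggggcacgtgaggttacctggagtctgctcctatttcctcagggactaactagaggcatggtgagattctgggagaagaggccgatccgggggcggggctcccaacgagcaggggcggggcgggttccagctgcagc
Tnfrsf19, start without it: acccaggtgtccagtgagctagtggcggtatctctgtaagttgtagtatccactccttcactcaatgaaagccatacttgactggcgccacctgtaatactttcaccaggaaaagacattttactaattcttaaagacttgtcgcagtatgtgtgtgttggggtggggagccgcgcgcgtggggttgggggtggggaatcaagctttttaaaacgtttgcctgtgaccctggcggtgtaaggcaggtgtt
Wnt4: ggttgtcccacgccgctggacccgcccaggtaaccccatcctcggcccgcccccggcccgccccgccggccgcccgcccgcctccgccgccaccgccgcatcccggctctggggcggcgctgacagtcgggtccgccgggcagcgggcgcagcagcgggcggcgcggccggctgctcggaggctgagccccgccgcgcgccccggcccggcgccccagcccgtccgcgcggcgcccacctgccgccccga
The Wnt4 window, chr4:137277385-137277634 (plus strand), had a GC content of 85.2% and 44 CpG dinucleotides. The Tnfrsf19 windows had 59.2% and 50.0% GC with 8 and 9 CpG dinucleotides, against medians of 52.4% and 6 over all windows. Wnt6 and Rspo1 had 79.6% and 66.8% GC. The probe sequences were not analysed here.

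Wnt4 was lower in KO than in WT gonads in all 4 pairs of arrays, by the most in females. Its gene lies on chromosome 4 (137277635 to 137299501, GRCm38.p6). In females it was at 8.32 in KO and 9.45 in WT gonads at E14.5, and at 8.59 in KO and 10.19 in WT gonads at E12.5. In males it was at 9.19 in KO and 9.42 in WT gonads at E14.5, and at 8.34 in KO and 9.26 in WT gonads at E12.5. The 4 WT arrays were thus all above the 4 KO arrays, but the KO male at E14.5 lay only 0.07 below the lowest WT array. The E12.5 female difference of -1.60, a 3.02-fold lower signal, ranked 3 from the most negative of 8452 probe sets in that pair, where 0.177% were at least 2-fold lower. At E14.5 the female difference of -1.14 ranked 12, with 0.189% of probe sets at least 2-fold lower. In males the differences were -0.23 at E14.5 and -0.92 at E12.5, which ranked 346 of 8452 and 8 of 8441. In these male pairs 0.0237% and 0.0355% of probe sets were at least 2-fold lower, and 0.0355% and 0.0711% at least 2-fold higher. All 4 KO levels of Wnt4 were above the floor. Where the probe set lies relative to the disrupted part of Wnt4 is not known from these sources, so the signal does not check the genotype labels on its own.

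**Figure D1:**
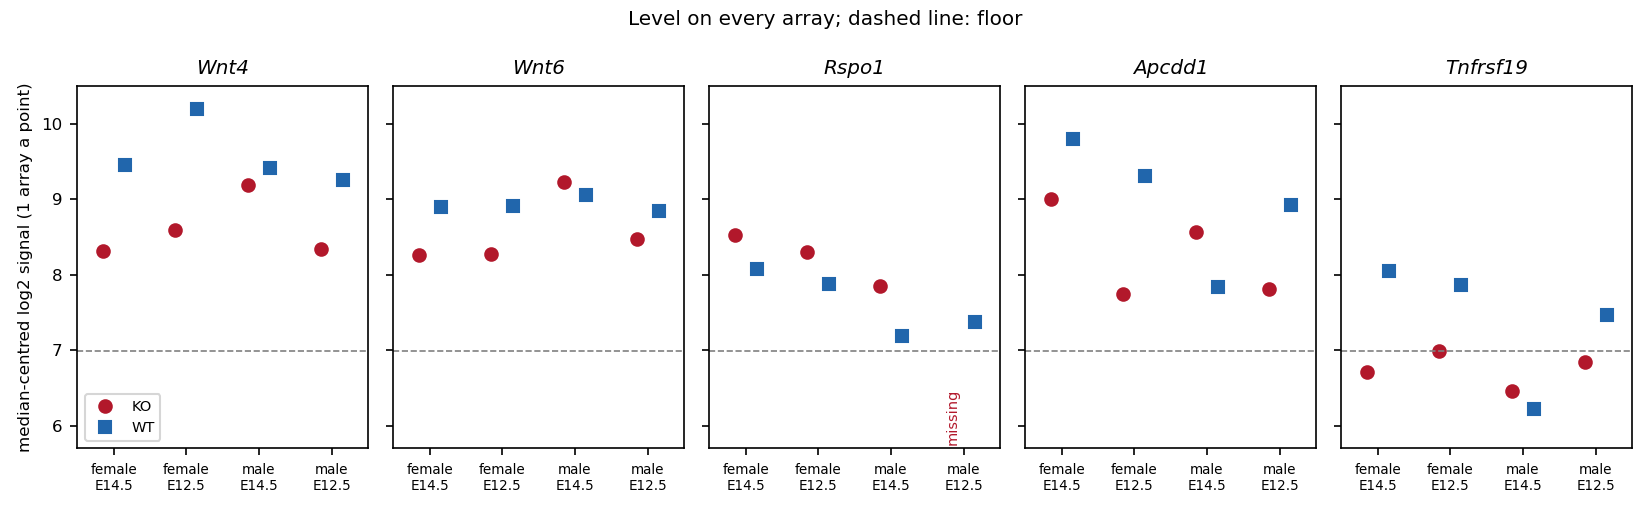
Median-centred log2 signal of each gene on every array, with KO (circles) left of WT (squares) in each sex and stage, and the floor of 6.99 as a dashed line. Wnt4 was lower in KO in all 4 pairs, Rspo1 was higher in KO in the 3 pairs with a value, and Tnfrsf19 was under the floor on 4 arrays.

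In the order of Wnt4 levels, the WT female at E12.5 stood 0.74 above the next array, the WT female at E14.5. The next 4 arrays, the WT female and WT male at E14.5, the WT male at E12.5 and the KO male at E14.5, were each within the fit's residual SD of 0.20 of their neighbour. A gap of 0.60 separated these from the KO female at E12.5. The fitted KO minus WT difference was -1.37 ± 0.20 in females and -0.57 ± 0.20 in males (limma, adjusted p = 0.433 and 0.794). The KO effect in females minus that in males was -0.79 ± 0.28 (limma, adjusted p = 0.434), which did not pass.

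Mesonephric and duct markers were measured beside this, since mesonephric tubules also make Wnt4. Of 11 genes on that list, 8 were fitted. Their mean level was 8.16 in KO and 8.29 in WT females at E14.5, and 8.35 in KO and 8.57 in WT females at E12.5. In males it was 8.51 in KO and 8.36 in WT gonads at E14.5, and 8.20 in KO and 8.35 in WT gonads at E12.5. None of the 8 was under the floor on more than 2 arrays. Pax8, a transcription factor of mesonephric tubules, followed Wnt4 most closely among them, with KO minus WT differences of -0.44 and -0.51 in females at E14.5 and E12.5, and of 0.10 and -0.46 in males. Cdh16, a cadherin of renal and mesonephric tubules, had -0.05 and -0.22 in females and 0.50 and 0.08 in males. The part of these cells in the Wnt4 values was not tested. In whole gonads, fewer cells of a type and less RNA per cell cannot be told apart.

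Wnt6, a second Wnt ligand, was lower in KO than in WT females by nearly the same amount at both stages. Its gene lies on chromosome 1 (74754342 to 74785322). In females it was at 8.26 in KO and 8.90 in WT gonads at E14.5, and at 8.28 in KO and 8.91 in WT gonads at E12.5. In males it was at 9.23 in KO and 9.05 in WT gonads at E14.5, and at 8.47 in KO and 8.85 in WT gonads at E12.5. The female pair differences were -0.64 and -0.63, while the male ones had opposite signs, 0.18 and -0.37. The fitted differences were -0.64 ± 0.14 in females and -0.10 ± 0.14 in males (limma, adjusted p = 0.433 and 0.879). The WT arrays spanned 8.85 to 9.05 over both sexes and stages.

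Rspo1, which encodes R-spondin 1, was the member with higher levels in KO gonads. Its gene lies on chromosome 4 (124986401 to 125009102), with its start 12.3 Mb from that of Wnt4. In females it was at 8.52 in KO and 8.08 in WT gonads at E14.5, and at 8.30 in KO and 7.88 in WT gonads at E12.5. In males it was at 7.85 in KO and 7.19 in WT gonads at E14.5. The WT male E12.5 level was 7.38, and the KO male E12.5 cell held a spreadsheet date number and was set to missing. The differences of 0.44 and 0.41 in females ranked 63 and 47 from the most positive of 8452 probe sets, and that of 0.66 in E14.5 males ranked 19. None of the 3 reached 2-fold, which 0.0355%, 0.0473% and 0.0355% of probe sets did. The fitted difference was 0.43 ± 0.06 in females (limma, adjusted p = 0.433). In males it was 0.66, a value that is the E14.5 pair alone. The males left no residual for Rspo1, so the fitted male error of 0.09 comes from the female arrays and moderation. All 4 female arrays were above the 3 male arrays with a value, though the WT female at E12.5 was only 0.04 above the KO male at E14.5.

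Apcdd1, a membrane protein that inhibits Wnt signals and is itself induced by them, had the widest range of the 5 genes, 2.05 over the 8 arrays. In females it was at 9.00 in KO and 9.79 in WT gonads at E14.5, and at 7.74 in KO and 9.31 in WT gonads at E12.5. In males it was at 8.56 in KO and 7.84 in WT gonads at E14.5, and at 7.81 in KO and 8.92 in WT gonads at E12.5. Both KO arrays of E12.5 thus lay at one level, whichever the sex. The E12.5 differences were -1.57 in females and -1.12 in males, and ranked 4 of 8452 and 2 of 8441 from the most negative. At least 2-fold lower were 0.177% and 0.0355% of probe sets in these pairs. At E14.5 the female difference was -0.79, while the male one was 0.72, the 15th most positive. The fitted difference was -1.18 ± 0.46 in females and -0.20 ± 0.46 in males (limma, adjusted p = 0.436 and 0.933), with errors that carry the gap between the stages. In the male E14.5 pair, where Apcdd1 was above WT, Kitl and Irx3 were above WT too, by 0.66 and 0.78 on floored values. The part of that array's makeup in the Apcdd1 value was not tested.

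Tnfrsf19, also called Troy, is a receptor of the TNF family and a known target of beta-catenin signalling. Its gene lies on chromosome 14 (60963834 to 61046855). In females it was at 6.72 in KO and 8.05 in WT gonads at E14.5, and at 6.99 in KO and 7.87 in WT gonads at E12.5. In males it was at 6.46 in KO and 6.22 in WT gonads at E14.5, and at 6.84 in KO and 7.46 in WT gonads at E12.5. Only 3 arrays, all WT, stood clear of the floor, and the KO female at E12.5 was 0.01 above it. The KO level was at least 2.10-fold lower in females at E14.5, 1.83-fold lower in females at E12.5 and at least 1.39-fold lower in males at E12.5. These differences ranked 14 and 19 of 8452 and 36 of 8441 from the most negative. At E14.5 both male arrays were under the floor and no fold is given. The fitted difference was -0.97 ± 0.12 in females and -0.24 ± 0.12 in males (limma, adjusted p = 0.433 and 0.794), and both depend on the floor. Without a floor the values were -1.11 and -0.19.

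**Figure D2:**
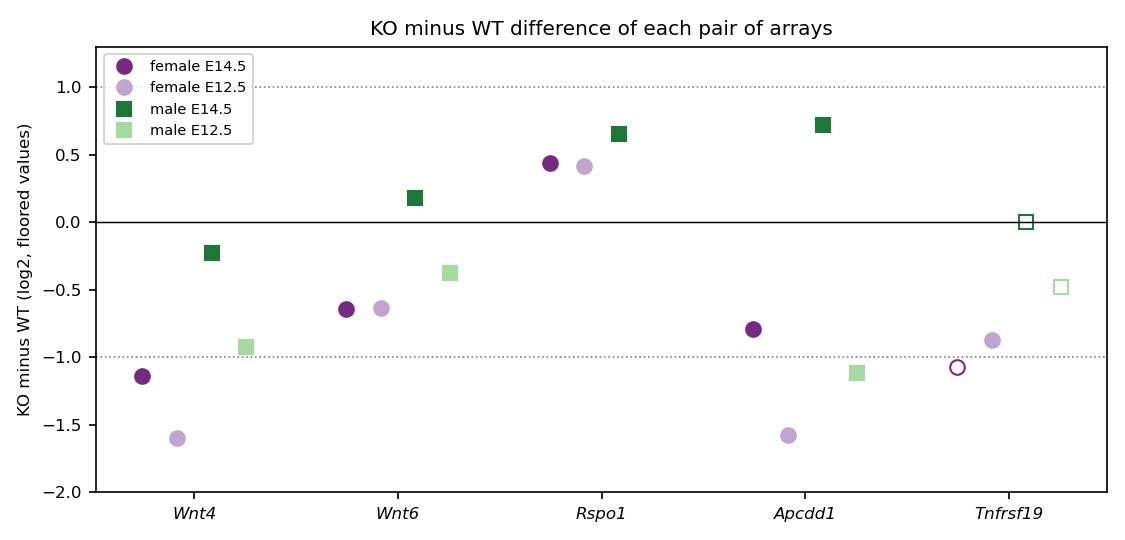
KO minus WT log2 difference of each gene in each pair of arrays (females, circles; males, squares; E14.5 dark, E12.5 light), on floored values, with dotted lines at 2-fold. Open symbols mark pairs with 1 or both arrays under the floor. At E12.5 the 4 genes other than Rspo1 were lower in KO in both sexes, between -0.37 and -1.60.

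For the loss of Wnt4 in females, limma called 0 of 8452 probe sets (0%), while 962 (11.4%) had an unadjusted p under 0.05. Of the 5 genes, 0 passed and 4 had an unadjusted p under 0.05, 3 lower and 1 higher, with 8.46% of all probe sets lower and 2.92% higher at that level. In males 0 probe sets passed (0%), with 405 (4.79%) at an unadjusted p under 0.05. Among them were Wnt4, lower, and Rspo1, higher, with 1.08% of all probe sets lower and 3.72% higher at that level. For Rspo1 that p takes its spread from the females, since the males left no residual. For the difference between the sexes in the KO effect, 0 passed (0%), 971 (11.5%) had an unadjusted p under 0.05, and so did Wnt4, Wnt6 and Tnfrsf19, each more negative in females, as were 8.59% of all probe sets. Without the WT female E14.5 array, which carried Eif2s3y and Cyp17a1, the KO differences in females were -1.60 for Wnt4, -0.63 for Wnt6, -1.57 for Apcdd1 and -0.87 for Tnfrsf19, those of the E12.5 pair, and Rspo1 could not be fitted. The 5 genes were chosen with results of these arrays known, so these counts describe them.

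A fit of genotype within each stage, added after the data were seen and with the sexes as the repeat, gave the E12.5 values of both sexes together. In KO gonads of E12.5, Wnt4 differed by -1.26 ± 0.24, Apcdd1 by -1.34 ± 0.32, Tnfrsf19 by -0.68 ± 0.23 and Wnt6 by -0.50 ± 0.19. Their limma adjusted p was 0.300, 0.531, 1 and 1, and 7 of 8441 probe sets passed (0.0829%), none of them a member, with 311 (3.68%) at an unadjusted p under 0.05. At E14.5 the values were -0.68 ± 0.24 for Wnt4, -0.03 ± 0.32 for Apcdd1, -0.53 ± 0.23 for Tnfrsf19 and -0.23 ± 0.19 for Wnt6, each at an adjusted p of 1. At that stage 0 probe sets passed (0%), with 352 (4.17%) at an unadjusted p under 0.05. The E14.5 minus E12.5 difference of the KO effect was 1.31 ± 0.46 for Apcdd1 (limma, adjusted p = 1). For that contrast 0 probe sets passed (0%), with 304 (3.6%) at an unadjusted p under 0.05. Rspo1 could not be fitted there for its missing value.

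Between the sexes in WT gonads, Rspo1, Tnfrsf19, Apcdd1 and Wnt4 were higher in females in both pairs. The female minus male differences at E14.5 and E12.5 were 0.89 and 0.50 for Rspo1, 1.95 and 0.39 for Apcdd1, and 0.04 and 0.93 for Wnt4. For Tnfrsf19 the difference was at least 1.07 at E14.5 and 0.40 at E12.5. Wnt4 at E12.5 was 1.91-fold higher in females, a size that few probe sets reached in that pair, in which 0.142% were at least 2-fold higher. Over both stages, Rspo1 was higher in females by 0.70 ± 0.06 (limma, adjusted p = 0.0023) and Tnfrsf19 by 0.73 ± 0.12 (limma, adjusted p = 0.0063). Apcdd1 at 1.17 ± 0.46 and Wnt4 at 0.48 ± 0.20 did not pass (limma, adjusted p = 0.079 and 0.087), nor did Wnt6 at -0.04 ± 0.14 (0.808). On the values as deposited Apcdd1 at 1.26 and Wnt4 at 0.57 passed (limma, adjusted p = 0.045 and 0.040), and without a floor Apcdd1 passed at 1.17 (0.044). Tnfrsf19 was at 1.12 without a floor. Of all probe sets, 63.6% passed this comparison. With both E14.5 male arrays left out, the comparison became the sex difference fitted at E12.5, not one over both stages. Rspo1 then differed by 0.50 and Tnfrsf19 by 0.45, and neither passed. Tnfrsf19 also did not pass without the WT female E14.5, WT female E12.5 or WT male E14.5 array, at 0.64, 0.83 and 0.50 (limma, adjusted p = 0.104, 0.069 and 0.088).

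In KO gonads the order of the sexes differed by gene. Female minus male differences at E14.5 and E12.5 were -0.87 and 0.25 for Wnt4, -0.97 and -0.20 for Wnt6, and 0.44 and -0.07 for Apcdd1. Rspo1 had 0.68 at E14.5. At E14.5, 10.7% of probe sets reached 2-fold upward and 7.05% downward in females against males, and at E12.5 these shares were 0.0474% and 0.344%. For Tnfrsf19 the KO levels were 6.99 or lower in both sexes. In the fit, Wnt6 was lower in KO females by 0.58 ± 0.14 (fitted difference -0.58) and Rspo1 was higher by 0.47 ± 0.09, with a limma adjusted p of 0.021 and 0.017. For Rspo1 only the E14.5 pair was measured, and the model takes the KO male stage difference from WT males. Here 57.2% of all probe sets passed, 26.5% higher and 30.7% lower. Without the E14.5 male arrays, which leaves the sex difference fitted at E12.5, Wnt6 stood at -0.20 and did not pass, and Rspo1 had no value. Wnt6 did not pass without any 1 of the 4 female arrays or the KO male E14.5 array, at -0.59 to -0.31. With 1 array left out, Rspo1 could be fitted only without the KO male E12.5 array, which holds no Rspo1 value. Its difference stayed at 0.47 and did not pass, as only the moderation and adjustment shared with other probe sets changed.

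With stage, Apcdd1 was higher at E14.5 than at E12.5 in females, by 1.26 in KO and 0.48 in WT gonads. Wnt4 was lower at E14.5 in females, by 0.28 in KO and 0.74 in WT gonads (differences -0.28 and -0.74). At least 2-fold apart were 0.745% of probe sets upward and 0.26% downward in KO females, and 0.568% and 0.45% in WT females. The fitted stage differences in females were 0.87 ± 0.46 for Apcdd1, -0.51 ± 0.20 for Wnt4, 0.21 ± 0.06 for Rspo1, 0.09 ± 0.12 for Tnfrsf19 and -0.01 ± 0.14 for Wnt6. None passed, at limma adjusted p of 0.092 to 1, while 23.1% of all probe sets did. In males Wnt6 was higher at E14.5, by 0.48 ± 0.14 (limma, adjusted p = 0.027), where 77.8% of all probe sets passed and 38% were higher. Without any 1 of the female arrays, or without either KO male array, Wnt6 did not pass there, at 0.21 to 0.48 (limma, adjusted p = 0.080 to 0.0998). Wnt4 had 0.50 ± 0.20 there, Rspo1 -0.19 ± 0.09, Apcdd1 -0.16 ± 0.46 and Tnfrsf19 -0.24 ± 0.12, which did not pass. The Rspo1 value is that of WT males alone, since the KO male E12.5 level is missing. Tnfrsf19 was at -0.82 and passed with a floor at the 20th percentile or with none (limma, adjusted p = 0.019 and 0.011). Wnt4 passed with quantile normalization, at 0.68, and without a floor, at 0.50 (limma, adjusted p = 0.022 and 0.038). On the values as deposited, with no centring, the stage differences of Wnt6 and Wnt4 in males were -0.30 and -0.27, and the median of all probe sets was -0.69. On that scale Rspo1 at -0.75 and Tnfrsf19 at -0.51 passed in males, and Wnt4 at -0.76 passed in females (limma, adjusted p = 0.0012, 0.018 and 0.016), where the median was -0.27. The stage difference in females minus that in males passed for Wnt4 at -1.01 ± 0.28 and for Rspo1 at 0.40 ± 0.11 (limma, adjusted p = 0.027 and 0.035), beside 69% of all probe sets. For Rspo1 the male side of this contrast is the WT pair alone.

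The wider pathway was read from 6 lists of 107 genes, of which 63 were fitted and 78 had a probe set. In KO females 35 of the 63 were negative and 23 positive, with a median of -0.04, against -0.02 for all probe sets, of which 56.7% were negative, and 0 passed. In KO males 35 were negative and 28 positive, with a median of -0.02 against 0.01 for all probe sets, of which 43.8% were negative, and 0 passed. The counts by list below stand beside these same shares. These lists hold the 5 members and genes known from earlier results of these arrays, such as Fst, Irx3 and Msx1.

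Among the ligands, 11 of 21 genes were fitted, and in KO females 4 were negative, 4 positive and the rest at 0. Apart from Wnt4 and Wnt6 the differences were small. Wls, which carries Wnt proteins to the cell surface, had -0.20 ± 0.09 in females, and Wnt11, a ligand of the non-canonical branch, had -0.18 ± 0.06. Wnt5b, another ligand, had 0.08 ± 0.05 in females and 0.18 ± 0.05 in males. Wnt1 had -0.14 ± 0.07 and Wnt11 0.14 ± 0.06 in males. None of these passed (limma, adjusted p from 0.436 to 0.794). Of the R-spondins and their receptors only Rspo1 was fitted.

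Receptors lay close to 0. Of 15, 12 were fitted, with KO minus WT differences between -0.10 and 0.21 in females and between -0.11 and 0.10 in males. The Frizzled receptors Fzd7 and Fzd8 had 0.21 ± 0.07 and 0.20 ± 0.07 in KO females, and Fzd4 had 0.15 ± 0.07, each positive at both stages. In males Fzd7 had -0.11 ± 0.07, Fzd8 0.10 ± 0.07 and Fzd4 0.08 ± 0.07. Of 6 fitted antagonists, 4 were negative and 2 positive in KO females. Sfrp2, a secreted Frizzled-related antagonist, had -0.32 at E14.5 and 0.67 at E12.5 in females, and 0.29 and 0.70 in males, so that both E12.5 pairs were positive. Its male value over the stages was 0.50 ± 0.25 (limma, adjusted p = 0.794).

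Among 19 fitted intracellular transducers, 12 were negative and 6 positive in KO females and 8 were negative and 11 positive in KO males. Lef1, a transcription factor that acts with beta-catenin, was at 9.38 in KO and 9.65 in WT females at E14.5, and at 9.45 in KO and 9.98 in WT females at E12.5. Its fitted difference in females was -0.40 ± 0.11, and that of Tle1, a co-repressor that binds Tcf and Lef factors, was -0.34 ± 0.10 (limma, adjusted p = 0.433 each). In males Lef1 had 0.02 at E14.5 and -0.29 at E12.5, and Tle1 had 0.03 and -0.22. Ctnnb1, which encodes beta-catenin, was at 11.85 in KO and 11.95 in WT females at E14.5, and at 11.94 in both at E12.5. Ctbp1, a co-repressor, had -0.17 ± 0.08 in females and 0.23 ± 0.08 in males. Tle3 and Csnk1e had 0.22 ± 0.07 and 0.10 ± 0.07 in males.

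Of 28 feedback and target genes, 16 were fitted. In KO females 12 were negative and 3 positive, with a median of -0.23, against -0.02 for all probe sets. In KO males 9 were negative and 7 positive, with a median of -0.02, against 0.01. Beside the members Apcdd1 and Tnfrsf19, the lowest in females were Irx3, a homeobox factor of ovarian supporting cells, at -1.79 ± 0.60, Fst, whose product follistatin binds activins, at -1.38 ± 0.27, and Msx1, a homeobox factor, at -0.72 ± 0.25 (limma, adjusted p = 0.436, 0.433 and 0.436). Axin2, a feedback inhibitor induced by beta-catenin, was near the floor, at 6.72 in KO and 6.79 in WT females at E14.5, and at 6.78 in KO and 7.18 in WT females at E12.5. Ccnd1, which encodes cyclin D1, had -0.26 and -0.15 at E14.5 and E12.5 in females, and Mycn had -0.37 and -0.33. In males Ccnd1 had 0.03 and -0.14 at these stages, and Mycn had 0.21 and -0.08. The 3 positive genes in KO females were Ccnd2 at 0.18 ± 0.13, Twist1 at 0.17 ± 0.10 and Bmp4 at 0.04 ± 0.10. In males Twist1 had 0.29 ± 0.10, Jun -0.14 ± 0.08 and Sox17 0.13 ± 0.13. None passed.

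**Figure D3:**
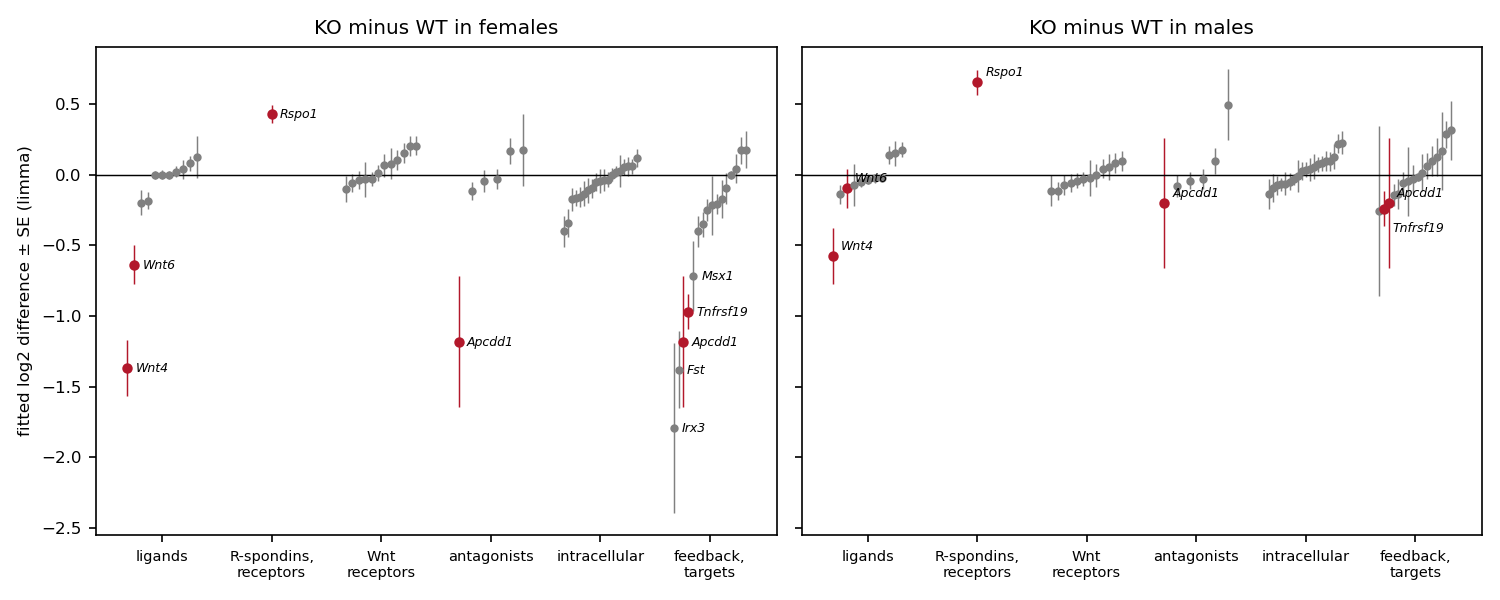
Fitted KO minus WT log2 difference with its SE (limma) for every fitted gene of the 6 Wnt pathway lists, in females on the left and males on the right, with the members in red. Most genes lie near 0 in both sexes, and in females the feedback and target genes reach down to -1.79.

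Between WT females and WT males, 20 of the 63 pathway genes passed as higher in females and 20 as lower, beside 33.4% and 30.2% of all probe sets. Those with the largest differences were Irx3 (2.10 ± 0.60), Fst (1.63 ± 0.27) and Id2, a helix-loop-helix regulator (1.38 ± 0.21), in females, and on the other side the receptors Ror2 (-0.91 ± 0.08), Lrp5 (-0.84 ± 0.07) and Fzd9 (-0.81 ± 0.05). The E12.5 pair leaves out the E14.5 male arrays. There Fst differed by 1.99, Irx3 by 1.32, Lef1 by 0.53 and Fzd9 by -0.66, while Id2 differed by 0.11 and Ror2 by -0.06. Wls (0.47 ± 0.09) and Wnt11 (0.46 ± 0.06) were higher in females, with 0.30 and 0.29 at E12.5, and Wnt1 was lower (-0.46 ± 0.07), with -0.12. Dkk3, a member of the Dickkopf family, was lower (-0.46 ± 0.07), with -0.15. Apc, a part of the complex that degrades beta-catenin, was lower (-0.61 ± 0.04) and Tle4 higher (0.60 ± 0.08), with -0.13 and 0.10 at E12.5. Sfrp2 and Sfrp1 did not pass, at 0.68 ± 0.25 and 0.13 ± 0.08.

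The genes with levels closest to those of each member were found by the root mean square distance of mean-centred values over the arrays, where 0 is an identical pattern. For Wnt4, whose own pattern had a root mean square of 0.60, they were Phlda2, an imprinted gene of placental growth, at 0.36, Pax8 at 0.37, Igfbp2, whose product binds insulin-like growth factors, at 0.38, Fxyd2, a subunit of the sodium pump of kidney tubules, at 0.39, and C1qtnf12 at 0.41. Wnt6 and Tnfrsf19 followed at 0.42 and 0.43. Without the E14.5 male arrays the nearest 5 were Phlda2, Igfbp3, Tpbg, Msx1 and Tnfrsf19, at 0.28 to 0.35. Phlda2 was at 7.45 in KO and 9.01 in WT females at E12.5.

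Postn, which encodes the matrix protein periostin, was nearest to Rspo1 over the 7 arrays with a value, at 0.16 beside a root mean square of 0.44 for Rspo1 itself. Postn was higher in KO in all 4 pairs, with 10.65 in KO and 10.02 in WT females at E14.5, and 10.11 in KO and 9.56 in WT females at E12.5. Aamdc and Myo9a came next at 0.24 each. For Tnfrsf19 the nearest was Prss23, a serine protease gene, at 0.12 beside 0.42. Prss23 was at the floor on all 4 KO arrays and on the WT male E14.5 array. Distances used floored values, and Tnfrsf19 was itself under the floor on 4 of these arrays. Part of this closeness is therefore set by the floor. Prrx2, a homeobox gene, and Stra6, a receptor for retinol transport, stood at 0.18 and 0.21. For Apcdd1, with 0.72 of its own, Irx3, Igfbp2 and Prss23 lay at 0.42 to 0.43. Wnt6, with 0.34 of its own, had Pnck, Cryz and Akr1c13 at 0.15 to 0.18. With the E14.5 male arrays left out, Igfbp2 was nearest to Apcdd1 at 0.22 and Gnai1 nearest to Wnt6 at 0.07. For Rspo1, with 5 arrays left, Tnnt1, Lmo4 and Rae1 were then nearest, at 0.11 to 0.12, and Postn was not among the nearest 3. Prss23 stayed nearest to Tnfrsf19, at 0.13.

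**Figure D4:**
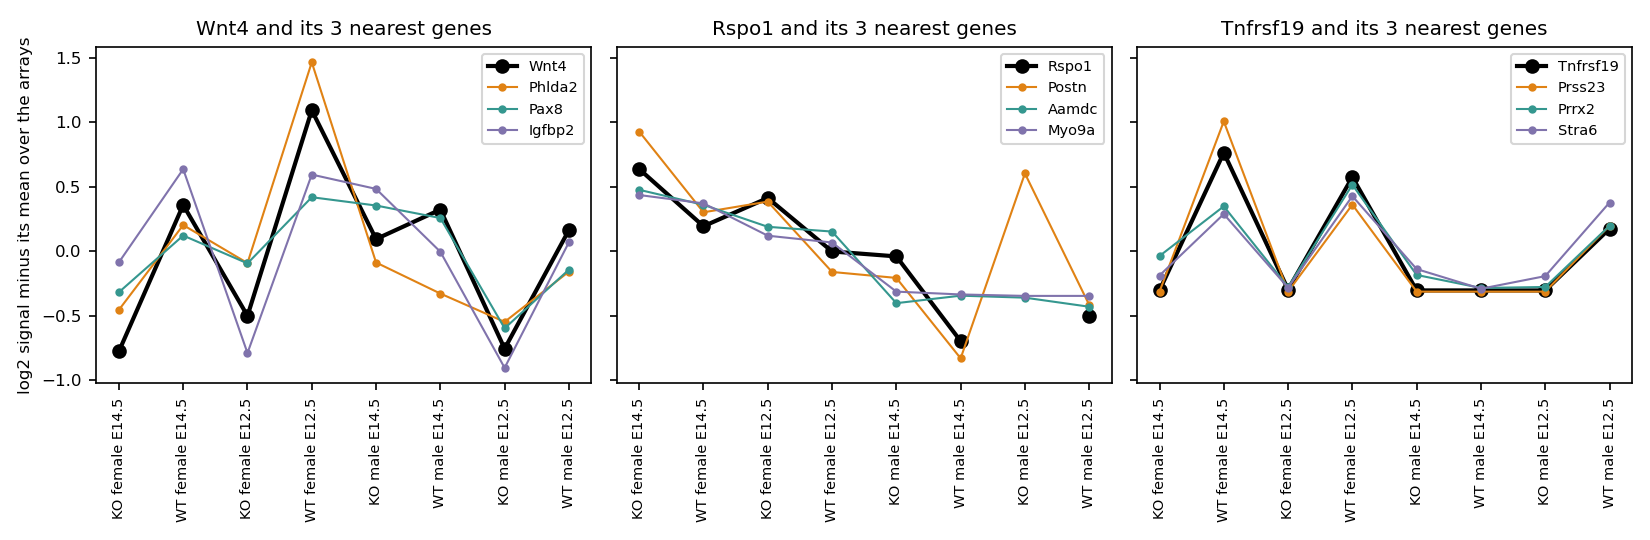
Log2 signal on floored values minus its mean over the arrays, for Wnt4, Rspo1 and Tnfrsf19 (black) and the 3 genes nearest to each (colours), with KO left of WT in each sex and stage and lines joining arrays only to guide the eye. The Rspo1 value of the KO male at E12.5 is missing, where Postn was at 10.33. The nearest genes shown are those over all arrays with a value.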

How the data were processed

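The deposited table holds log2 signals of 12488 probe sets per array. MAS5 is the tool named in the submitters' processing notes. Its version and scaling are not stated there, and log base 2 was read from the deposited values. Array medians ran from 7.04 to 7.85. In the KO male E12.5 column, 14 cells, from 41278 to 41284 (spreadsheet numbers of dates), were over 20 and set to missing. Arrays were shifted to 1 median, values under the 40th percentile were set to it, and 66 control probe sets were left out. A probe set had to exceed this floor on 2 or more arrays, which left 8452 (6353 genes). RefSeq gene IDs matched 10817 of 10833 probe sets with 1 gene symbol.

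The model was sex × genotype plus sex × stage in limma 3.58.1 (R 4.3.3), two-sided, with the trend option and p-values adjusted by Benjamini-Hochberg over all fitted probe sets. With 1 array a group, the 2 residual degrees of freedom come from genotype effects that differ between stages, and moderation added 2.77. P-values therefore measure that spread, not the spread between embryos. Rspo1 had 1 residual degree of freedom, from the females alone. A gene with several probe sets was read from the one with the highest mean. Named genes were the members, up to 3 genes of each list with the largest difference and 1 sign at both stages in the female, male and sex comparisons, the nearest patterns and sex-check genes. Axin2, Ctnnb1, Ccnd1, Ccnd2, Mycn, Bmp4, Kitl, Cdh16, Cyp17a1, Insl3 and Vnn1 were named after their values were seen. Members and lists were chosen with earlier results of these data known. Alternatives covered scaling, floor, filter, model, trend and arrays left out.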

Additional observations from a re-analysis of the deposited data

Results flagged for a closer look

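Wnt4 had stage differences of opposite sign in the sexes, in both genotypes. Wnt6 did so in sign alone, since its values in females were close to 0 and turned positive with quantile normalization. The E14.5 minus E12.5 difference of Wnt4 was -0.28 in KO and -0.74 in WT females, and 0.85 in KO and 0.16 in WT males. Females minus males, averaged over the genotypes, this came to -1.01 ± 0.28 (limma, adjusted p = 0.027). For Wnt6 the stage differences were -0.01 in KO and -0.01 in WT females, and 0.76 in KO and 0.21 in WT males, which came to -0.49 ± 0.20 (limma, adjusted p = 0.077). Of all probe sets, 69% passed this contrast, and the male differences rest on the E14.5 male arrays, to which centring added 0.43 and 0.47, against -0.34 to 0.09 on the other arrays. On the values as deposited the male stage differences had the other sign, -0.27 for Wnt4 and -0.30 for Wnt6.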

How the results depend on the processing

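In KO females every member kept its sign under the 9 alternatives with all arrays or without the E14.5 males, and 0 probe sets passed in any of them or with any 1 array left out. Wnt4 ran from -1.37 to -1.30 and from -1.60 to -1.14 with 1 array left out, and Apcdd1 from -1.57 to -0.79. In KO males, leaving out an E12.5 male array turned Apcdd1 to 0.72 and Wnt6 to 0.18, from lows of -1.12 and -0.37. The count for males and for the KO-by-sex difference was 0 throughout, and Rspo1 turned there to 0.068 without centring.

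Sex and stage calls changed with the stage terms of the model and with the arrays left out, female as well as male. Between WT sexes the count of 5374 was 0 with 1 stage term for both sexes, with no stage term and without the E14.5 males, and 2370 to 4507 with 1 array left out (2370 to 2699 without a WT array). Between KO sexes the count of 4835 was 0 under the same 3 settings, 3223 with no filter, and 0 to 3798 with 1 array left out. It was 0 without the KO female E12.5 array and 1244, 1463 and 1728 without the KO female E14.5, KO male E12.5 and KO male E14.5 arrays. With 1 array left out, WT female minus male values of Wnt6 ran from -0.32 to 0.23, and KO ones of Wnt4 from -0.65 to 0.038, of Apcdd1 from -0.73 to 1.11 and of Tnfrsf19 from -0.24 to 0.24. Without the E14.5 males, where the sex difference is the one fitted at E12.5, Wnt6 turned to 0.066 in WT. Wnt4 and Tnfrsf19 turned to 0.37 and -0.042 in KO there. Without centring Wnt6 turned to 0.048 in WT.

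For stage in females, the count of 1949 was 5156 without centring, 40 with no filter, and 0 with 1 stage term, without the E14.5 males or without any 1 array. Rspo1 turned to -0.042 and Tnfrsf19 to -0.15 without centring, Tnfrsf19 to -0.043 with a floor at the 20th percentile or none, and to -0.0066 without a WT female array (highest 0.19). Wnt6 turned to 0.043 with quantile normalization and to 0.23 with 1 stage term, where Tnfrsf19 was -0.074. For stage in males, the count of 6577 was 0 with 1 stage term and 4982 to 6141 with 1 array left out. There Wnt4 turned to -0.27 and Wnt6 to -0.30 without centring, Wnt4 to -0.00025, Rspo1 to 0.076 and Apcdd1 to 0.35 with 1 stage term, and Apcdd1 ran from -1.08 to 0.75 with 1 array left out. With no filter, Tnfrsf19 between WT sexes, Rspo1 and Wnt6 between KO sexes and Wnt6 with stage in males did not pass. Calls were gained for Wnt4 and Apcdd1 between WT sexes, Wnt4 with stage in females and males, and Rspo1 and Tnfrsf19 with stage in males, under the scaling and floor settings given beside each. The cause of these changes was not tested. Rspo1 could not be fitted in females with a female array left out. No paired analysis was possible because each group holds 1 array and no replicate number links arrays. KO and WT arrays of the same sex and stage were matched through the sex and stage terms of the model.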
